A study of Homo sapiens with 15 samples.

Results

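The transcripts of the human mitochondrial genome were followed in NCI-H69 cells treated with either of 2 small molecules or with their solvent. The members were the rows of the count table whose Ensembl identifier has a symbol that starts with MT-, which gave 37 of 62754 gene rows: 13 mRNAs, 2 rRNAs and 22 tRNAs. NCI-H69 is an established line of small cell lung cancer. The groups were cells given CS2, cells given FB23-2 and cells given the solvent DMSO, with 3 libraries each, and the submitters name both compounds as inhibitors of FTO, an RNA demethylase. CS2 is another name of brequinar, which is also known as an inhibitor of DHODH, the enzyme of pyrimidine synthesis in the inner mitochondrial membrane. Doses, times and cell passages are not stated in the labels, and nothing in them says that the libraries of a group came from separate cultures, so the p-values measure the spread between these libraries, which may be technical. The libraries were made with a kit for poly(A) mRNA from total RNA.

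The mitochondrial genome is a small circle with few gaps between genes. The single mitochondrial RNA polymerase, POLRMT, copies each strand into long transcripts that run through many genes. The tRNAs lie between most of the mRNAs and rRNAs and are cut out at both ends, which frees the RNAs between them. MT-ND6 and a subset of tRNAs are read from the light-strand promoter, and the other genes are read from promoters on the heavy strand. Most of the freed mRNAs gain a short poly(A) tail, which completes the stop codon where the genome encodes its first base or bases alone. All the mRNAs encode subunits of the respiratory chain or of ATP synthase.

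In GENCODE coordinates for GRCh38, 12 of the 13 mRNAs and both rRNAs lie on the plus strand of chromosome M, with MT-ND6 on the minus strand, and 14 tRNAs lie on the plus strand and 8 on the minus strand. The 3′ ends of the mRNA genes are shown because they set apart those whose stop codon needs the tail. Of the 13 genes, 7 end in a whole triplet that is taken here as the stop codon. In 2 of these, MT-CO1 and MT-ND6, the triplet is AGA and AGG. The other 6 genes end in the first base or bases of a stop codon, 5 of them in T and 1 in TA. Capitals mark the stop codon as encoded, and each sequence is the last 30 bases of the gene, 5′ to 3′ on its own strand.
MT-ND1: tacaatctccagcattccccctcaaaccTA
MT-ND2: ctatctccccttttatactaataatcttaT
MT-CO1: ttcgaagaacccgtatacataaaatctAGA
MT-CO2: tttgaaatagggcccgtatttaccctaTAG
MT-ATP8: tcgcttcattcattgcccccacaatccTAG
MT-ATP6: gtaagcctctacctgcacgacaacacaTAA
MT-CO3: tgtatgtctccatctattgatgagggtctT
MT-ND3: gactacaaaaaggattagactgaaccgaaT
MT-ND4L: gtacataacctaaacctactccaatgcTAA
MT-ND4: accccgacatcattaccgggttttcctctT
MT-ND5: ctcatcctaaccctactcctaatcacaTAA
MT-ND6: attgtaattgagattgctcgggggaatAGG
MT-CYB: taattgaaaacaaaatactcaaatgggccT

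Both pairs of genes that share a transcript also share bases, shown here in capitals because reads in the overlap cannot be given to one gene. MT-ATP8 and MT-ATP6 overlap by 46 bases within chrM:8512-8587, and MT-ND4L and MT-ND4 by 7 bases within chrM:10745-10781, both on the plus strand, and MT-ATP6 shares 1 further base with MT-CO3. How the counting treated such reads is not given in the sources used here, and the counts of these 4 genes are uncertain to that extent.
MT-ATP8/MT-ATP6: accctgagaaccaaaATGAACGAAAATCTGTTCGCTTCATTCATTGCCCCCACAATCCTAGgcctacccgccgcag
MT-ND4L/MT-ND4: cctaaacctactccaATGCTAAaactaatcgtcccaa

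The libraries held 29916267 to 33663742 counts in CS2-treated cells, 32352835 to 43957839 in FB23-2-treated cells and 31404658 to 45022633 in DMSO-treated cells. At these depths 3 counts, the upper limit that a count of 0 allows, equal 0.0666 to 0.1003 CPM (counts scaled to a common library size), which covers counting error alone. All 7 neuroendocrine markers looked up were over 1 CPM in every library, which fits the labelled line, and of 8 markers of blood, fibroblast and endothelial cells 1, COL1A2, was over 1 CPM in every library. A fit over 19781 genes tested each treatment against DMSO and FB23-2 against CS2 with edgeR's quasi-likelihood test, with a gene called where the p adjusted after Benjamini and Hochberg was under 0.05. Of the 37 members, 16 passed the filter on low counts: the 13 mRNAs, both rRNAs and MT-TP. FB23-2 replicate 2 stood apart from the other libraries of its group in mitochondrial RNA. For most results it bears on, its level is given apart from theirs or the result is given also without it.

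**Figure D1:**
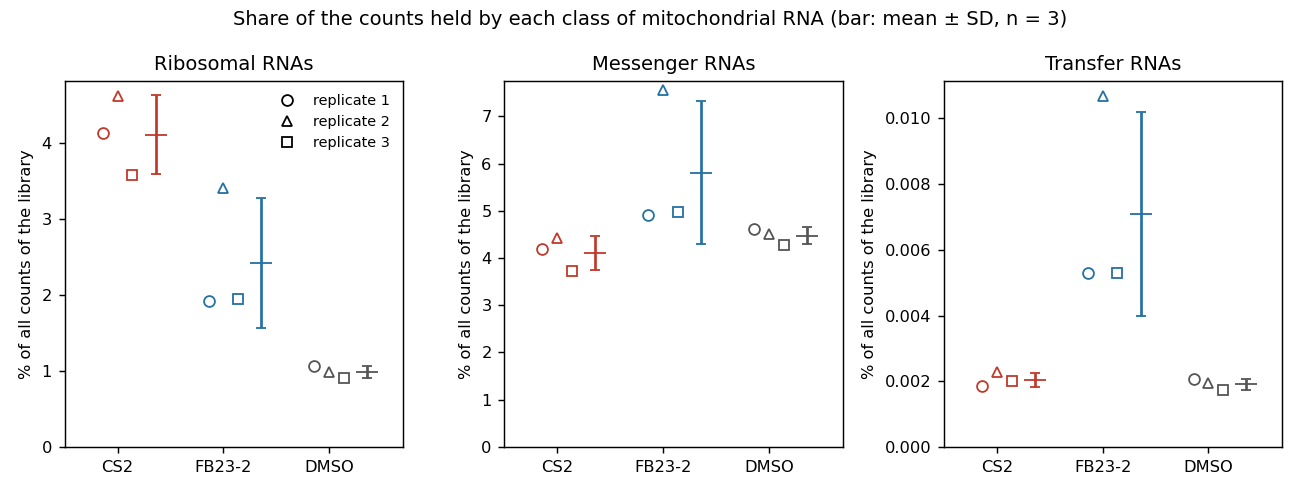
Share of each library's counts, in percent, from mitochondrial rRNAs, mRNAs and tRNAs in separate panels with separate scales, with 1 symbol per library in the order CS2, FB23-2, DMSO and the mean ± SD beside each group (n = 3). The rRNA share was 3.58 to 4.61% in CS2 libraries, 1.92 to 3.41% in FB23-2 libraries and 0.907 to 1.06% in DMSO libraries, and FB23-2 replicate 2 (triangle) lies above both others of its group in all 3 classes.

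Both treatments went with a larger mitochondrial share of the library, made up in different ways. The 37 members took 8.32, 9.05 and 7.30% of the counts of CS2 replicates 1, 2 and 3, against 5.69, 5.51 and 5.18% in DMSO replicates 1, 2 and 3. In FB23-2-treated cells they took 6.83 and 6.91% in replicates 1 and 3 and 10.97% in replicate 2. The tRNAs, nearly all of them MT-TP, took 0.0020 ± 0.00021% in CS2 libraries, 0.0071 ± 0.0031% in FB23-2 libraries and 0.0019 ± 0.00017% in DMSO libraries (SD, n = 3 each). For all members together, every treated library lay above every DMSO library. A share cannot tell more mitochondrial RNA per cell from less nuclear RNA per cell.

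By class, the mitochondrial mRNAs took 4.19, 4.43 and 3.72% of the counts in CS2 libraries and 4.63, 4.52 and 4.27% in DMSO libraries, which overlap. FB23-2 replicates 1 and 3 were at 4.91 and 4.96% and replicate 2 at 7.56%, all above DMSO. The rRNAs took 4.13, 4.61 and 3.58% in CS2 libraries, 1.92, 3.41 and 1.94% in FB23-2 libraries and 1.06, 0.984 and 0.907% in DMSO libraries, so that no pair of groups overlapped. In an exact two-sided permutation test, 3 libraries against 3 cannot go below p = 0.1. That smallest p was reached by both treatments against DMSO for all members and for rRNAs, and by FB23-2 against DMSO for mRNAs. CS2 against DMSO for mRNAs gave an exact permutation p of 0.2. Over the family of 18 such comparisons of shares and ratios the lowest adjusted p was 0.138.

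The balance of rRNA to mRNA does not depend on how a library is scaled. It can depend on how well a poly(A) library recovers each class, which is not known here. The balance averaged 0.996 ± 0.040 rRNA counts per mRNA count in CS2 libraries, 0.411 ± 0.035 in FB23-2 libraries and 0.220 ± 0.0086 in DMSO libraries (SD, n = 3 each). The rRNAs were 49.0 to 51.0% of mitochondrial counts after CS2, 28.1 to 31.0% after FB23-2 and 17.5 to 18.6% after DMSO. FB23-2 replicate 2 had the highest ratio of its group, 0.451 against 0.391 and 0.390 in replicates 1 and 3, and still lay far below every CS2 library. The log2 difference of the ratio was 2.18 for CS2 minus DMSO, 0.90 for FB23-2 minus DMSO and -1.28 for FB23-2 minus CS2, each with the smallest exact permutation p the design allows.

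MT-RNR1, the rRNA of the small mitochondrial ribosomal subunit (chrM:648-1601), had 5244, 5863 and 4385 CPM in CS2 libraries and 1235, 1099 and 946 CPM in DMSO libraries. In FB23-2 libraries it had 1508 and 1501 CPM in replicates 1 and 3 and 2225 CPM in replicate 2. The 3 groups did not overlap, with CS2 highest and DMSO lowest. MT-RNR1 was 4.72-fold higher after CS2 (log2 fold change 2.24 ± 0.18 SE, edgeR adjusted p = 2.69e-06) and higher by 0.67 ± 0.17 on the log2 scale after FB23-2 (edgeR adjusted p = 0.00723), or by 0.46 without replicate 2 (edgeR adjusted p = 0.00562).

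MT-RNR2, the rRNA of the large subunit (chrM:1671-3229), had 35728, 41050 and 31216 CPM in CS2 libraries and 9429, 8727 and 8119 CPM in DMSO libraries. In FB23-2 libraries it had 16996 and 17543 CPM in replicates 1 and 3 and 33676 CPM in replicate 2. FB23-2 replicate 2 was the one FB23-2 library within the range of the CS2 libraries. MT-RNR2 was 4.11-fold higher after CS2 (log2 fold change 2.04 ± 0.28, edgeR adjusted p = 0.000764) and higher by 1.38 ± 0.28 after FB23-2 (edgeR adjusted p = 0.0047), or by 0.98 without replicate 2 (edgeR adjusted p = 5.27e-10). Between the compounds, FB23-2 minus CS2 was -0.66 for MT-RNR2 and was not called (edgeR adjusted p = 0.0725), whereas without FB23-2 replicate 2 it was -1.06 (edgeR adjusted p = 1.95e-10). MT-RNR1 was lower after FB23-2 than after CS2 by 1.57 ± 0.17 with all libraries (log2 fold change -1.57, edgeR adjusted p = 2.19e-05), and the log2 fold change was -1.78 without replicate 2.

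The rRNAs lie next to each other, with 1 tRNA gene between them, yet they did not keep one ratio. There were 6.98 ± 0.15 counts of MT-RNR2 per count of MT-RNR1 in CS2 libraries, 12.7 ± 2.1 in FB23-2 libraries and 8.05 ± 0.48 in DMSO libraries (SD, n = 3 each). FB23-2 replicate 2 held 15.1 and replicates 1 and 3 held 11.3 and 11.7, so the FB23-2 group lay above the others with or without it. This ratio was described and not tested. Mature mitochondrial rRNAs carry short tails or none, and how evenly a poly(A) library recovers them is not known here. That limit holds too for the rRNA levels and their ratio to mRNA, where tail length and abundance cannot be told apart.

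**Figure D2:**
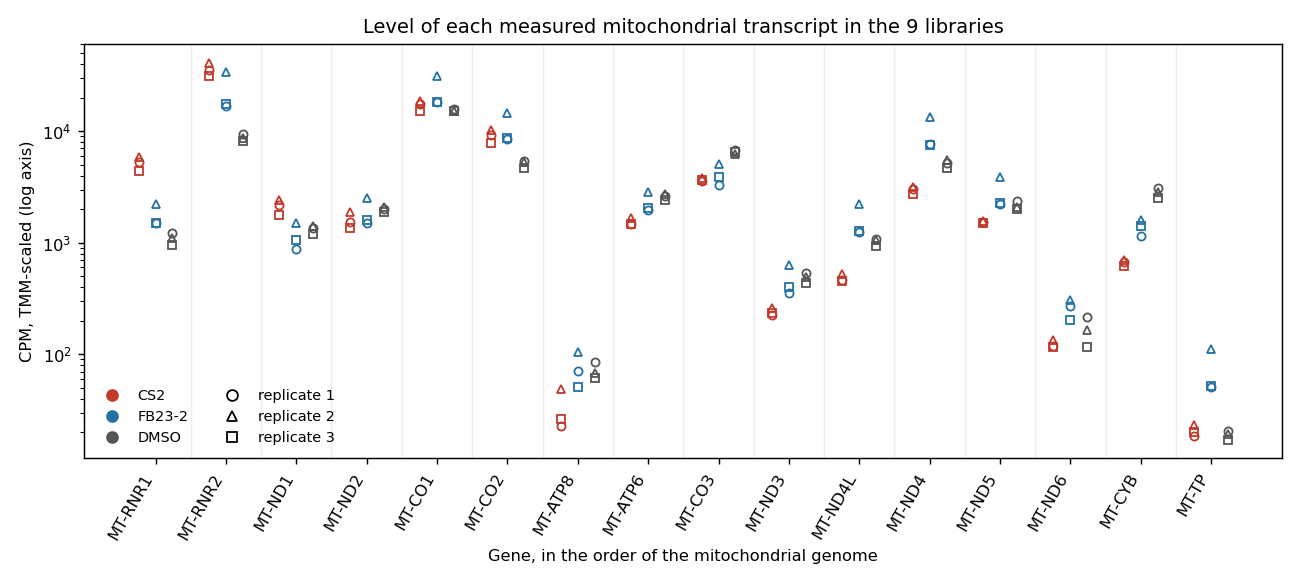
Level of each of the 16 tested members in every library, in TMM-scaled CPM on a log axis and not per length, so that groups compare within a gene; genes run in genome order and colours mark CS2, FB23-2 and DMSO. All CS2 libraries stand above the DMSO libraries for both rRNAs, and MT-CYB of DMSO libraries stands above that of both treated groups.

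Per kilobase, the order of levels in DMSO-treated cells ran from MT-CO1 at 9960 ± 265 CPM per kilobase, MT-CO3 at 8313 ± 292 and MT-CO2 at 7495 ± 570 to MT-ATP8 at 346 ± 59, MT-ND6 at 316 ± 94 and MT-TP, the one tRNA tested, at 281 ± 26 (SD, n = 3). Those 3 at the top are the catalytic core subunits of complex IV. Among the 13 mRNAs the highest level was 31.5 times the lowest. The libraries are of poly(A) RNA, and most but not all of the mRNAs gain a tail. In each group, the order can therefore reflect recovery as well as abundance, and which was not tested. Several neighbours in that order lay within each other's spread: MT-ATP6 (3812 ± 233) and MT-ND4 (3739 ± 314), MT-ND3 (1404 ± 146) and MT-ND1 (1383 ± 113), and MT-ATP8, MT-ND6 and MT-TP.

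After CS2 the order was led by MT-RNR2 at 23090 ± 3157 CPM per kilobase, followed by MT-CO2 at 13386 ± 1753 and MT-CO1 at 11047 ± 1129. MT-CYB stood at 581 ± 36, MT-ND6 at 234 ± 21 and MT-ATP8 at 157 ± 68, and the highest mRNA was 85.1 times the lowest. After FB23-2 the first 3 were MT-CO2 at 15377 ± 5040, MT-CO1 at 14662 ± 4790 and MT-RNR2 at 14585 ± 6079, which cannot be ordered within their spread. MT-ATP8 was lowest there too, at 366 ± 133 (509 in replicate 2), and the highest mRNA was 42.0 times the lowest. MT-ATP6, encoded on the same mRNA as MT-ATP8, stood at 2261 ± 160 in CS2 libraries. In FB23-2 libraries it stood at 3343 ± 710 (4160 in replicate 2). The level of MT-ATP8 may thus not be that of its mRNA, and the ranges of 85.1 and 42.0 rest on it. Why these genes differ was not tested. FB23-2 replicate 2 alone had 21196 CPM per kilobase of MT-CO2, 20192 of MT-CO1 and 21601 of MT-RNR2, above the group mean in each case.

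**Figure D3:**
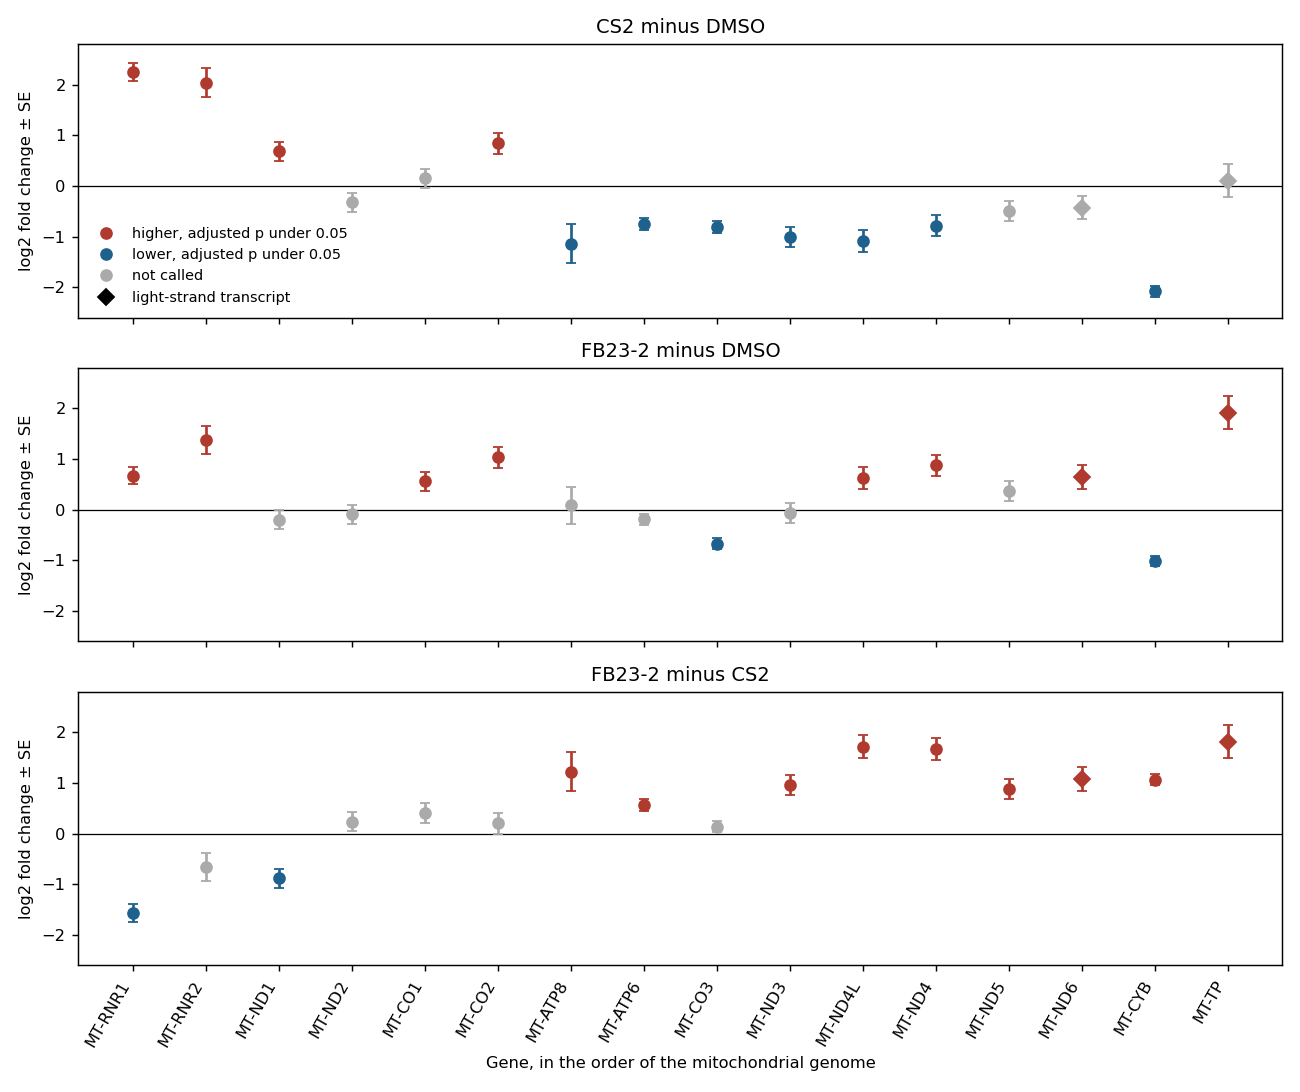
Log2 fold change of each tested member in genome order, with 1 panel each for CS2 over DMSO, FB23-2 over DMSO and FB23-2 over CS2; bars are 1 SE, red and blue mark members called higher and lower, grey those not called, and diamonds the minus-strand genes. In the CS2 panel the plus-strand genes run from 2.24 at MT-RNR1 to -2.09 at MT-CYB.

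Of the 16 tested members, CS2 went with 4 higher and 7 lower, and 5 were not called. Over all genes tested, 24.3% were called higher and 25.3% lower, 49.7% in either direction. Leaving out each library in turn moved the number of members higher between 3 and 4 and the number lower between 5 and 9. The 9 came without FB23-2 replicate 2, where 27.4% of all genes tested were called lower. The median log2 fold change of the 16 was -0.47, beside -0.00 over all genes tested. Both rRNAs, MT-ND1 and MT-CO2 were higher. MT-ATP8, MT-ATP6, MT-CO3, MT-ND3, MT-ND4L, MT-ND4 and MT-CYB were lower.

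MT-CYB, which encodes cytochrome b of complex III and lies last among the plus-strand mRNA genes (chrM:14747-15887), had the largest decrease among the members. It had 676, 696 and 616 CPM in CS2 libraries, 1152, 1592 and 1420 CPM in FB23-2 libraries and 3075, 2855 and 2506 CPM in DMSO libraries. The groups did not overlap, and FB23-2 libraries lay between the others. CS2 left 0.236 times the DMSO level (log2 fold change -2.09 ± 0.10, edgeR adjusted p = 7.58e-12). FB23-2 minus DMSO was -1.02 ± 0.10 (edgeR adjusted p = 7.73e-08), and it was -1.13 without replicate 2.

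MT-ND1, a membrane subunit of complex I and the first mRNA gene after the rRNAs (chrM:3307-4262), had 2164, 2423 and 1785 CPM in CS2 libraries and 1356, 1410 and 1201 CPM in DMSO libraries. FB23-2 replicates 1 and 3 had 887 and 1066 CPM and replicate 2 had 1515 CPM. CS2 libraries were above all the others, and FB23-2 replicate 2 was above the DMSO libraries while replicates 1 and 3 were below them. The CS2 increase was 0.68 ± 0.19 on the log2 scale (edgeR adjusted p = 0.0145), but it was not called without CS2 replicate 1 (edgeR adjusted p = 0.0553). FB23-2 minus DMSO was -0.19 and was not called (edgeR adjusted p = 0.419), and without replicate 2 it was -0.43 (edgeR adjusted p = 0.011).

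The counts of MT-CYB set against those of MT-ND1 take in both ends of the plus-strand mRNA genes. There were 0.315 ± 0.029 MT-CYB counts per MT-ND1 count in CS2 libraries, 1.23 ± 0.15 in FB23-2 libraries and 2.13 ± 0.13 in DMSO libraries (SD, n = 3 each). The lowest DMSO library held 2.03 and the highest CS2 library 0.345. The FB23-2 libraries ran between 1.05, in replicate 2, and 1.33.

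Between those ends, the CS2 results up to MT-CO2 were mixed. MT-ND2, another membrane subunit of complex I, had 1543, 1881 and 1364 CPM in CS2 libraries and 2015, 2094 and 1880 CPM in DMSO libraries, with overlap at 1 CS2 library, and its log2 fold change of -0.32 was not called (edgeR adjusted p = 0.193). At about that size, MT-ND2 was called lower without FB23-2 replicate 2 (edgeR adjusted p = 0.00421), in a fit of the 2 groups alone (edgeR adjusted p = 0.00905) and with a replicate block (edgeR adjusted p = 0.00635). MT-CO1, the subunit of complex IV with the site of oxygen reduction, had 17419, 18552 and 15133 CPM in CS2 libraries against 15822, 15052 and 15200 CPM in DMSO libraries, and its log2 fold change of 0.15 was not called (edgeR adjusted p = 0.548). MT-CO2, which accepts electrons from cytochrome c, had 9267, 10296 and 7906 CPM in CS2 libraries against 5431, 5262 and 4687 CPM in DMSO libraries and was higher by 0.84 ± 0.21 (edgeR adjusted p = 0.00902).

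Past MT-CO2 stand the ATP synthase genes and MT-CO3. MT-CO3 had 3605, 3845 and 3675 CPM in CS2 libraries, 3311, 5086 and 3866 CPM in FB23-2 libraries and 6738, 6281 and 6533 CPM in DMSO libraries. Every treated library, FB23-2 replicate 2 included, was below every DMSO library. MT-CO3 fell by 0.81 ± 0.11 on the log2 scale after CS2 (edgeR adjusted p = 8.61e-06) and by 0.67 ± 0.11 after FB23-2 (edgeR adjusted p = 6e-05), where it fell by 0.86 without replicate 2. It was thus called lower after both compounds, while MT-CO2, a subunit of the same complex, was called higher after both.

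The ratio of MT-CO2 to MT-CO3 counts was 2.47 ± 0.28 in CS2 libraries, 2.54 ± 0.31 in FB23-2 libraries and 0.787 ± 0.062 in DMSO libraries (SD, n = 3 each). The compounds thus overlapped on this ratio, with 2.15 to 2.68 after CS2 and 2.23 to 2.85 after FB23-2, and no DMSO library exceeded 0.838. FB23-2 minus CS2 was 0.20 for MT-CO2 and 0.14 for MT-CO3 on the log2 scale, neither called, and without FB23-2 replicate 2 it was -0.10 for MT-CO2 and -0.05 for MT-CO3.

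MT-ATP6, the channel subunit of ATP synthase, had 1467, 1665 and 1488 CPM in CS2 libraries, 1960, 2833 and 2036 CPM in FB23-2 libraries and 2607, 2749 and 2432 CPM in DMSO libraries. It was lower after CS2 by 0.75 ± 0.11 (log2 fold change -0.75, edgeR adjusted p = 2.22e-05). FB23-2 replicates 1 and 3 lay below the DMSO libraries and replicate 2 above them. The log2 fold change of FB23-2 minus DMSO was -0.19 (edgeR adjusted p = 0.159), and -0.37 without replicate 2 (edgeR adjusted p = 9.59e-05).

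MT-ATP8, a small subunit of ATP synthase, had 22.7, 48.7 and 26.3 CPM in CS2 libraries, 70.8, 105 and 51.2 CPM in FB23-2 libraries and 85.1, 68.3 and 61.4 CPM in DMSO libraries. CS2 libraries were below all the others, with CS2 replicate 2 nearest to them. Its decrease of 1.14 ± 0.38 after CS2 (log2 fold change -1.14, edgeR adjusted p = 0.0459) was lost without CS2 replicate 1 or 3, FB23-2 replicate 1 or any 1 DMSO library, with adjusted p up to 0.133. MT-ATP8 and MT-ATP6 are encoded on 1 shared mRNA and overlap, as printed above. There were 0.0208 ± 0.0074 MT-ATP8 counts per MT-ATP6 count in CS2 libraries, 0.0328 ± 0.0067 in FB23-2 libraries and 0.0276 ± 0.0044 in DMSO libraries (SD, n = 3 each). The counts of MT-ATP8 may thus not measure that mRNA.

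Farther along lie MT-ND3, MT-ND4L and MT-ND4, all subunits of complex I. MT-ND3 had 227, 259 and 234 CPM in CS2 libraries and 532, 493 and 432 CPM in DMSO libraries, lower by 1.02 ± 0.20 after CS2 (log2 fold change -1.02, edgeR adjusted p = 0.0026). In FB23-2 libraries it had 356, 637 and 403 CPM, which take in the DMSO range, and the log2 fold change of -0.06 was not called (edgeR adjusted p = 0.809). Without replicate 2 it was -0.35 (edgeR adjusted p = 0.000689).

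MT-ND4L had 465, 528 and 453 CPM in CS2 libraries, 1245, 2238 and 1271 CPM in FB23-2 libraries and 1071, 1063 and 942 CPM in DMSO libraries. MT-ND4, with which it shares an mRNA, had 3056, 3175 and 2737 CPM in CS2 libraries, 7650, 13286 and 7545 CPM in FB23-2 libraries and 5211, 5552 and 4693 CPM in DMSO libraries. Both stood in the order FB23-2, DMSO, CS2 with no overlap. After CS2 the log2 fold change was -1.09 ± 0.22 for MT-ND4L (edgeR adjusted p = 0.00374) and -0.79 ± 0.21 for MT-ND4 (edgeR adjusted p = 0.0124). The MT-ND4 call was lost without CS2 replicate 1 (edgeR adjusted p = 0.0512) or 3 (edgeR adjusted p = 0.0553).

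After FB23-2 the pair was higher than in DMSO-treated cells, MT-ND4L by 0.63 ± 0.22 (edgeR adjusted p = 0.0409) and MT-ND4 by 0.88 ± 0.21 (edgeR adjusted p = 0.00664). Without FB23-2 replicate 2 these values were 0.30 (edgeR adjusted p = 0.00128) and 0.56 (edgeR adjusted p = 3.85e-07). The MT-ND4L call was lost without CS2 replicate 1 or 3 or any 1 DMSO library, with adjusted p up to 0.108. FB23-2 minus CS2 was 1.72 ± 0.22 for MT-ND4L (edgeR adjusted p = 0.00022) and 1.67 ± 0.21 for MT-ND4 (edgeR adjusted p = 0.000134), and without FB23-2 replicate 2 it was 1.38 for MT-ND4L and 1.35 for MT-ND4.

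The ratio within the pair moved less than the levels did, with 6.21 ± 0.31 counts of MT-ND4 per count of MT-ND4L in CS2 libraries, 6.01 ± 0.12 in FB23-2 libraries and 5.02 ± 0.18 in DMSO libraries (SD, n = 3 each). By contrast MT-ND4 counts per MT-CYB count were 4.51 ± 0.062 in CS2 libraries, 6.77 ± 1.5 in FB23-2 libraries and 1.84 ± 0.13 in DMSO libraries, with every treated library above every DMSO library.

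MT-ND5, the largest complex I subunit of the mitochondrial genome, had 1520, 1575 and 1491 CPM in CS2 libraries, 2241, 3890 and 2266 CPM in FB23-2 libraries and 2391, 2095 and 2012 CPM in DMSO libraries. CS2 libraries were below all the others, and FB23-2 replicates 1 and 3 lay within the DMSO range. Neither compound was called against DMSO: CS2 had a log2 fold change of -0.50 ± 0.20 (edgeR adjusted p = 0.0636) and FB23-2 of 0.37 (edgeR adjusted p = 0.15), or 0.06 without replicate 2. The CS2 decrease of MT-ND5 was called at about the same size in other settings: without FB23-2 replicate 1, 2 or 3 (edgeR adjusted p = 0.0491, 1.45e-07 and 0.0394), in a fit of the 2 groups alone (5.02e-07), with library size alone (0.0232) and with a filter on mean CPM (0.0352). FB23-2 minus DMSO was called for MT-ND5 without FB23-2 replicate 3 (0.52, edgeR adjusted p = 0.0497). FB23-2 minus CS2 was 0.87 ± 0.20 (edgeR adjusted p = 0.0046), and 0.56 without FB23-2 replicate 2 (edgeR adjusted p = 9.89e-08).

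Across the 12 plus-strand mRNAs, the log2 fold change of CS2 minus DMSO declined with the position of the gene's midpoint, with Pearson r = -0.738 and Spearman rho = -0.657. The decline was not steady, with -1.14 at MT-ATP8, -0.50 at MT-ND5 and -2.09 at MT-CYB. With both rRNAs added, over 14 genes, r was -0.865 and rho -0.785. Both rRNAs come first among those 14, so position and class cannot be told apart in what they add. For FB23-2 minus DMSO the 12 mRNAs gave r = -0.163 and rho = 0.014. FB23-2 minus CS2 gave r = 0.692 and rho = 0.671. The correlations for FB23-2 include its replicate 2 and were not repeated without it. All these correlations are descriptions across genes of the same libraries, which share transcripts and are not independent, and the treatments share their DMSO libraries.

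Against gene length, the 12 mRNAs gave r = 0.193 and rho = 0.385 for CS2 minus DMSO. Against the pyrimidine share of the gene's RNA they gave r = -0.242 and rho = -0.165. Against the level of the mRNA, its mean CPM per kilobase over all 9 libraries, they gave r = 0.562 and rho = 0.497 for CS2 minus DMSO. For FB23-2 minus DMSO, with replicate 2 included, they gave r = 0.496 and rho = 0.385. That level takes in the treated libraries whose change is compared, so part of the relation is built in and it cannot be ranked against position. With the rRNAs added, r for the pyrimidine share was -0.794 over 14 genes. The rRNAs are 48.0 and 47.5% pyrimidine and the plus-strand mRNAs 55.1 to 59.9%, so class and pyrimidine share cannot be told apart over those 14.

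By stop codon, the 6 mRNAs with an incomplete encoded stop held 1 called higher and 4 lower after CS2, and the 7 with a whole one held 1 higher and 3 lower. After FB23-2 the 6 held 1 higher and 2 lower, and the 7 held 4 higher and 0 lower. Over all genes tested the shares called higher and lower were 24.3 and 25.3% after CS2 and 25.4 and 26.7% after FB23-2, against which the classes were not tested. The median log2 fold change of the mRNAs with incomplete stops was -0.80 after CS2 and -0.14 after FB23-2, and that of the mRNAs with whole stops was -0.50 after CS2 and 0.56 after FB23-2. The difference between these classes was not tested. These counts and medians are with all libraries. Without FB23-2 replicate 2, MT-ND1, MT-ND2 and MT-ND3 of the 6 and MT-ATP6 of the 7 were also called lower after FB23-2. MT-ND6 of the 7 was then no longer called higher, so the counts after FB23-2 depend on that library. In that fit 24.3% of all genes tested were called higher and 25.5% lower.

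FB23-2 went with 8 higher, 2 lower and 6 not called of the 16 tested members, where 25.4% of all genes tested were called higher and 26.7% lower, 52.0% in either direction. Higher were both rRNAs, MT-CO1, MT-CO2, MT-ND4L, MT-ND4, MT-ND6 and MT-TP, and lower were MT-CO3 and MT-CYB. Without replicate 2 of FB23-2 the counts were 7 higher and 6 lower, and 3 were not called. In that fit 24.3% of all genes tested were called higher and 25.5% lower. MT-ND1, MT-ND2, MT-ATP6 and MT-ND3 were then lower, MT-ND2 by 0.35 (log2 fold change -0.35, edgeR adjusted p = 0.00586), and MT-ND6 was no longer called.

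MT-CO1 had 18254 and 18436 CPM in FB23-2 replicates 1 and 3 and 31136 CPM in replicate 2, against 15822, 15052 and 15200 CPM in DMSO libraries. All 3 FB23-2 libraries were above DMSO, replicate 2 by far the most. Its increase was 0.56 ± 0.19 (edgeR adjusted p = 0.0346), lost without CS2 replicate 1 or any 1 DMSO library with adjusted p up to 0.0821, and it was 0.26 without FB23-2 replicate 2 (edgeR adjusted p = 0.00659). MT-CO2 had 8449 and 8607 CPM in FB23-2 replicates 1 and 3 and 14498 CPM in replicate 2, and was higher than in DMSO libraries by 1.04 ± 0.21 (edgeR adjusted p = 0.00281), or by 0.74 without replicate 2.

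For FB23-2 minus CS2, 9 members were called higher, 2 lower and 5 not called, where 29.7% of all genes tested were called higher and 30.0% lower, 59.6% in either direction. Without FB23-2 replicate 2 there were 8 higher and 3 lower, where 28.3% of all genes tested were called higher and 28.8% lower. Lower with all libraries were MT-RNR1 and MT-ND1, with MT-ND1 lower by 0.88 ± 0.19 (log2 fold change -0.88, edgeR adjusted p = 0.00315). Higher were MT-ATP8, MT-ATP6, MT-ND3, MT-ND4L, MT-ND4, MT-ND5, MT-ND6, MT-CYB and MT-TP, all of them beyond MT-CO2 in genome order. MT-CYB differed by 1.07 ± 0.10 (edgeR adjusted p = 2.64e-08). MT-ATP8 (1.22 ± 0.38, edgeR adjusted p = 0.03) was lost without CS2 replicate 1 or 3 or FB23-2 replicate 1 or 2, with adjusted p up to 0.0938.

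**Figure D4:**
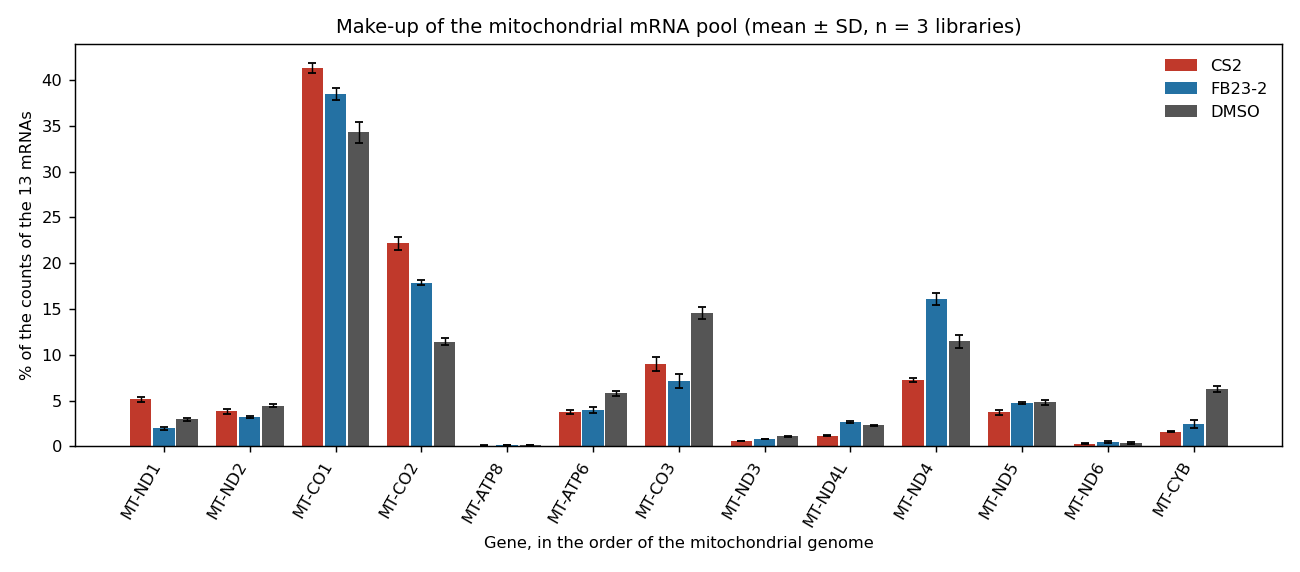
Percent of the 13 mitochondrial mRNAs' counts taken by each mRNA, in genome order, as the group mean with SD (n = 3) for CS2, FB23-2 and DMSO. MT-CO2 takes 22.2% on average in CS2 libraries, 17.9% in FB23-2 libraries and 11.4% in DMSO libraries, while MT-CYB takes 1.61% in CS2 libraries, 2.45% in FB23-2 libraries and 6.27% in DMSO libraries.

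Within the pool of the 13 mRNAs, where the size of the pool plays no part, MT-CO1 took 41.3 ± 0.54% of counts in CS2 libraries, 38.5 ± 0.65% in FB23-2 libraries and 34.3 ± 1.2% in DMSO libraries (SD, n = 3 each). MT-CO2 took 22.2 ± 0.75% in CS2 libraries, 17.9 ± 0.28% in FB23-2 libraries and 11.4 ± 0.40% in DMSO libraries. MT-CO3 took 9.04 ± 0.77% in CS2 libraries, 7.10 ± 0.78% in FB23-2 libraries and 14.6 ± 0.70% in DMSO libraries. Thus 2 complex IV mRNAs held a larger part of both treated pools than of the DMSO pool, and the other held a smaller part.

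MT-CYB took 1.61 ± 0.062% of the pool in CS2 libraries, 2.45 ± 0.46% in FB23-2 libraries and 6.27 ± 0.37% in DMSO libraries. MT-ATP6 took 3.75 ± 0.25% in CS2 libraries, 3.96 ± 0.35% in FB23-2 libraries and 5.80 ± 0.26% in DMSO libraries. Both treated pools held less of these mRNAs than every DMSO pool, with the compounds overlapping on MT-ATP6 and not on MT-CYB. FB23-2 replicate 2 had the lowest share of its group for both, 2.00% for MT-CYB against 2.43 and 2.91% in replicates 1 and 3, and 3.56% for MT-ATP6 against 4.14 and 4.17%.

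On others the compounds parted. MT-ND4 took 7.26 ± 0.19% in CS2 libraries, 16.1 ± 0.61% in FB23-2 libraries and 11.5 ± 0.70% in DMSO libraries, so DMSO lay between the compounds. MT-ND4L did likewise, with 1.17 ± 0.052% in CS2 libraries, 2.68 ± 0.11% in FB23-2 libraries and 2.29 ± 0.076% in DMSO libraries. MT-ND1 ran the other way, with 5.13 ± 0.28% in CS2 libraries, 1.99 ± 0.17% in FB23-2 libraries and 2.95 ± 0.16% in DMSO libraries. These shares sum to a fixed total, so they are not independent of each other, and they were not tested.

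**Figure D5:**
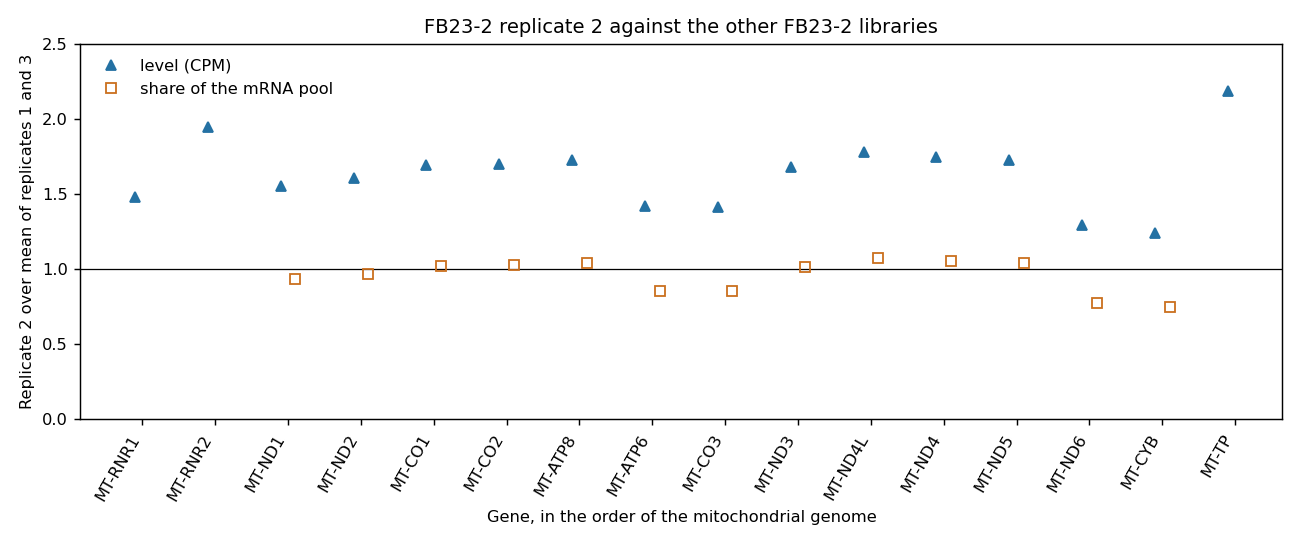
FB23-2 replicate 2 relative to the mean of FB23-2 replicates 1 and 3 for each member, as the ratio of CPM (16 members) and as the ratio of the share of the 13-mRNA pool. The CPM ratios lie between 1.24 and 2.19, and the pool ratios lie between 0.749 and 1.07.

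FB23-2 replicate 2 held more of every tested member than replicates 1 and 3 of its group. Its CPM was 1.24 times (MT-CYB) to 2.19 times (MT-TP) the mean of those 2 libraries, with a median of 1.69 over 16 members. Between replicates 1 and 3 themselves the same ratio ran from 0.811 to 1.38, with a median of 0.979.

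As shares of the mRNA pool, the library was close to the others of its group for most mRNAs, with a median ratio of 1.01 over 13. The lowest pool ratios were those of MT-CYB at 0.749, MT-ND6 at 0.778, and MT-ATP6 and MT-CO3 at 0.856 each. The highest pool ratios were 1.07 for MT-ND4L and 1.06 for MT-ND4. Its library total of 43957839 counts was the largest of its group. What set this library apart was not tested.

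MT-ND6, a membrane subunit of complex I and the mRNA read from the opposite strand (chrM:14149-14673), had 118, 135 and 116 CPM in CS2 libraries, 271, 306 and 203 CPM in FB23-2 libraries and 216, 165 and 117 CPM in DMSO libraries. FB23-2 replicate 3 lay within the DMSO range, and the DMSO libraries were themselves widely spread. CS2 minus DMSO was -0.43 ± 0.23 and was not called (edgeR adjusted p = 0.156), but this rested on the DMSO libraries, with -0.63 without DMSO replicate 3 (edgeR adjusted p = 0.00354) and -0.20 without DMSO replicate 1 (edgeR adjusted p = 0.36). With a replicate block it was called, at -0.40 (edgeR adjusted p = 0.0452). FB23-2 minus DMSO was 0.65 ± 0.23 (edgeR adjusted p = 0.0445), lost without CS2 replicate 1 or 3, DMSO replicate 2, or FB23-2 replicate 1 or 2, with adjusted p up to 0.188, the value without FB23-2 replicate 2.

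Set against the plus-strand mRNAs, there were 2.99 ± 0.15 MT-ND6 counts per 1000 counts of the 12 others in CS2 libraries, 4.60 ± 1.0 in FB23-2 libraries and 3.69 ± 0.95 in DMSO libraries (SD, n = 3 each). Both treatments overlapped DMSO, each with an exact permutation p of 0.4, and the compounds did not overlap each other, with the smallest p the design allows, 0.1. Whether the counting used strand is not given in the sources used here, and RNA from the strand opposite MT-ND6 cannot be told apart from MT-ND6 itself.

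The tRNAs were all but absent from the table. Of 22, 20 had 0 counts in all 9 libraries, out of 318578927 counts in total, and MT-TF had 14 counts over all libraries and 0 to 2 in each. Mature tRNAs are short and carry no poly(A) tail. MT-TP, the tRNA for proline, was the exception, with 602 to 4698 counts per library. In the coordinates of chromosome M, MT-TF is the first gene and MT-TP the last. Whether the MT-TP counts come from the tRNA or from longer RNA over its gene cannot be told here and was not tested. The MT-TP gene is shown whole because it was the tRNA gene with counts in every library. It lies on the minus strand at chrM:15956-16023, next to the control region and facing the end of MT-CYB across MT-TT.
MT-TP: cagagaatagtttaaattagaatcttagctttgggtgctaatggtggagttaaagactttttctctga

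MT-TP had 18.3, 23.1 and 20.0 CPM in CS2 libraries and 20.7, 19.3 and 17.2 CPM in DMSO libraries, which overlap. In FB23-2 libraries it had 51.0 and 52.0 CPM in replicates 1 and 3 and 113 CPM in replicate 2, all far above the other 6 libraries. It was 3.78-fold higher after FB23-2 than after DMSO (log2 fold change 1.92 ± 0.32, edgeR adjusted p = 0.00177), the largest increase among the members in that comparison, and 1.44 higher on the log2 scale without replicate 2. FB23-2 minus CS2 was 1.81 ± 0.32 (edgeR adjusted p = 0.00192), and 1.33 without FB23-2 replicate 2 (edgeR adjusted p = 2.28e-12). CS2 minus DMSO was 0.10 ± 0.33 (edgeR adjusted p = 0.82). As with MT-ND6, reads from the opposite strand cannot be told apart from MT-TP.

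Nuclear copies of mitochondrial genes limit how surely reads are placed. Of the windows of 50 bases in MT-CO1, 49.5% also occur without mismatch in annotated nuclear genes, as do 46.7% in MT-ATP6, 43.6% in MT-ND2 and 30.6% in MT-CO3. In MT-CYB the share is 1.19%, in MT-ND4 3.54% and in MT-ND5 4.76%, and MT-RNR1, MT-ND3, MT-ND4L and MT-TP have none. MT-CO2, MT-ND1, MT-ND6, MT-RNR2 and MT-ATP8 lie between MT-CO3 and MT-ND5 on this measure. The 404 rows of nuclear copies together held 0.633 to 1.559% as many counts as the members. That pooled share does not hold for each gene. In DMSO replicate 1, MTATP6P1 held 24918 counts beside 99059 of MT-ATP6, whereas MTCO1P12 held 1396 beside 601244 of MT-CO1. In FB23-2 replicate 2, MTATP6P1 held 33603 beside 118186 of MT-ATP6.

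The nuclear copy with the most counts was MTATP6P1, 98.53% identical to MT-ATP6. It had 377 ± 27 CPM in CS2 libraries, 579 ± 198 in FB23-2 libraries and 642 ± 42 in DMSO libraries (SD, n = 3 each), with 806 in FB23-2 replicate 2. Its log2 fold change was -0.77 for CS2 minus DMSO (edgeR adjusted p = 0.0126), beside -0.75 for MT-ATP6. MTCO1P12, a copy of MT-CO1, had 0.12 after CS2, not called, and 0.68 after FB23-2 (edgeR adjusted p = 0.00696), beside 0.15 and 0.56 for MT-CO1. MTND4P12 had -1.10 after CS2 (edgeR adjusted p = 0.00164) and 0.71 after FB23-2 (edgeR adjusted p = 0.0139), beside -0.79 and 0.88 for MT-ND4. For MTND2P28 the values were -0.26 (edgeR adjusted p = 0.0463) and -0.37 (edgeR adjusted p = 0.0066), beside -0.32 and -0.09 for MT-ND2, and MTCO3P12 was not called in any comparison. Without FB23-2 replicate 2, FB23-2 minus DMSO was -0.46 for MTATP6P1 (edgeR adjusted p = 7.93e-06), 0.43 for MTCO1P12, 0.47 and not called for MTND4P12 (edgeR adjusted p = 0.109), -0.49 for MTND2P28 and -1.07 for MTCO3P12 (edgeR adjusted p = 0.00168). Without it, MTCO3P12 was called lower after CS2 too (-0.68, edgeR adjusted p = 0.0157), and for FB23-2 minus CS2 MTND2P28 was called lower (-0.23, edgeR adjusted p = 0.0443). Adding the copies' counts to their mitochondrial genes changed no call of a member. Most copies held few counts beside their mitochondrial genes, and MTATP6P1 moved with MT-ATP6 after CS2. That addition therefore cannot show whether reads were placed correctly.

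Nuclear genes for mitochondrial transcription, RNA processing and replication were called in both directions, as were genes in general. Of 40 such factors, all tested, 10 were higher and 10 lower after CS2, 8 higher and 13 lower after FB23-2, and 9 higher and 15 lower after FB23-2 relative to CS2, where 24.3 and 25.3%, 25.4 and 26.7%, and 29.7 and 30.0% of all genes tested were called higher and lower in these 3 comparisons. Without FB23-2 replicate 2 the counts were 13 and 10, 10 and 9, and 9 and 13. In that fit 26.9 and 27.4%, 24.3 and 25.5%, and 28.3 and 28.8% of all genes tested were called higher and lower. With all libraries, the median log2 fold changes of the factors were 0.05, -0.05 and -0.09, near those of all genes tested. POLRMT itself had 224 ± 11 CPM in CS2 libraries, 122 ± 15 in FB23-2 libraries and 160 ± 5.2 in DMSO libraries (SD, n = 3 each), higher after CS2 by 0.48 ± 0.08 (edgeR adjusted p = 9.66e-05) and lower after FB23-2 (log2 fold change -0.39 ± 0.08, edgeR adjusted p = 0.000674). FB23-2 minus CS2 was -0.87 ± 0.08 for POLRMT (edgeR adjusted p = 3.85e-08). FB23-2 replicate 2 had 105 CPM of POLRMT, and replicates 1 and 3 had 129 and 133 CPM. Each factor call given by name was kept without FB23-2 replicate 2.

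After CS2 the largest increases of the list were in POLG, the catalytic subunit of the mitochondrial DNA polymerase, at 0.86 ± 0.09 (edgeR adjusted p = 1.66e-07), PTCD1, a pentatricopeptide protein, at 0.72 ± 0.17 (edgeR adjusted p = 0.00194), and TEFM, the elongation factor of POLRMT, at 0.53 ± 0.11 (edgeR adjusted p = 0.000681). The largest decreases were in PRORP, the nuclease that cuts the 5′ ends of tRNAs, at -0.89 ± 0.18 (edgeR adjusted p = 0.000405), TFB1M, a methyltransferase of the small-subunit rRNA, at -0.79 ± 0.11 (edgeR adjusted p = 5.72e-06), and MTPAP, the mitochondrial poly(A) polymerase, at -0.74 ± 0.10 (edgeR adjusted p = 2.75e-06).

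After FB23-2 the largest increases were in POLG2, the accessory subunit of the DNA polymerase (0.73 ± 0.10, edgeR adjusted p = 4.05e-06), PTCD2 (0.64 ± 0.11, edgeR adjusted p = 4.5e-05), which in mice is known for processing of the cytochrome b mRNA, and MTERF3 (0.58 ± 0.11, edgeR adjusted p = 0.000208), a factor of mitochondrial gene expression. The largest decreases were in HSD17B10, a partner of PRORP in the same enzyme (-0.71 ± 0.10, edgeR adjusted p = 1.17e-05), PRORP (-0.70 ± 0.18, edgeR adjusted p = 0.00241) and SLIRP (-0.62 ± 0.12, edgeR adjusted p = 0.000218), which binds mitochondrial mRNAs together with LRPPRC.

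Between the compounds, FB23-2 was higher than CS2 for PTCD2 by 1.29 ± 0.11 (edgeR adjusted p = 5.32e-09), for TFB1M by 1.13 ± 0.11 (edgeR adjusted p = 3.05e-08) and for MTERF3 by 0.77 ± 0.11 (edgeR adjusted p = 7.79e-06). Beside POLRMT, the largest decreases relative to CS2 were in PTCD1 (-0.86 ± 0.18, edgeR adjusted p = 0.000293) and FASTKD5 (-0.79 ± 0.09, edgeR adjusted p = 3.49e-07), a protein of mitochondrial RNA granules that acts on mRNA ends not flanked by tRNAs. Whether any of these levels bears on the mitochondrial transcripts was not tested.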

How the data were processed

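RNA of NCI-H69 cells was sequenced after poly(A) mRNA library preparation, per the labels' protocols. The authors deposited 1 table of read counts per gene for 9 libraries. The submitters' processing notes name build hg38. For the aligner, counter, annotation and use of strand, nothing was given in the sources used here. The labels list 15 samples, and the 6 of another line are not analysed here. The columns named FB23 were taken as the FB23-2 samples, and 0 columns belonged to unmapped samples.

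Identifiers, strands, coordinates and sequences came from GENCODE transcripts for GRCh38. The deposited counts were fitted with edgeR 4.0.16 in R 4.3.3: TMM scaling, a filter by group with a count minimum of 10 and a total minimum of 15, and the quasi-likelihood test over 19781 genes and all 9 libraries, with group as the sole term and Benjamini-Hochberg adjustment. The filter kept at least 99.902% of each library's counts, and the biological coefficient of variation was 0.101. CPM values are TMM-scaled, and group values are mean ± SD. Shares and ratios were compared with exact two-sided permutation tests (scipy 1.17.1). Alternatives were DESeq2 1.42.0, other scalings and filters, 2-group fits, a replicate block, and leaving out each library, and the scripts were tested on simulated data.

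All 37 members are named or counted. Of a list of 40 factors, up to 3 increases and 3 decreases per comparison are named, with POLRMT added in the comparisons with DMSO after its values were seen, and of nuclear copies the 5 with the highest mean count. Members and lists were chosen with earlier results of these data known. The addition of nuclear copies to their mitochondrial genes, and the repeat of the factors and nuclear copies without FB23-2 replicate 2, were chosen after seeing the data.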

Additional observations from a re-analysis of the deposited data

How the results depend on the processing

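Of the calls, 8 of 11 for CS2 minus DMSO, 7 of 10 for FB23-2 minus DMSO and 10 of 11 for FB23-2 minus CS2 were kept under all 18 alternatives. DESeq2, size factors by relative log expression and scaling from nuclear genes changed no member's call. With no filter on low counts, 7 calls were lost and 1 was gained (MT-ATP6 lower after FB23-2, edgeR adjusted p = 0.0249), and 5 members instead of 8 were higher after FB23-2. Scaling by library size alone and a filter on mean CPM each lost no call and gained 3: MT-ND5 after CS2, and MT-RNR2 and MT-CO1 for FB23-2 minus CS2. Leaving out each library in turn moved the number higher after FB23-2 between 5 and 9 and the number lower between 2 and 6. The 6 came without FB23-2 replicate 2, where 25.5% of all genes tested were called lower.

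Some values changed sign when a library was left out, none of them called with all libraries. For FB23-2 minus DMSO, MT-ND3 ran between -0.35 and 0.11, MT-ATP8 between -0.23 and 0.32, and MT-ND2 between -0.35 and 0.057. For FB23-2 minus CS2, MT-ND2 ran between -0.029 and 0.38, MT-CO2 between -0.10 and 0.35, and MT-CO3 between -0.046 and 0.28. The difference in the share of all members between FB23-2 and CS2 was 0.018 percentage points, and between -1.35 and 0.720 with a library left out, at its lowest without FB23-2 replicate 2.

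Same-numbered libraries were not treated as pairs. Correlations of their deviations ran between -0.0303 and 0.0207 for each compound with DMSO. Between FB23-2 and CS2 they were 0.167, 0.123 and 0.049 for replicates 1, 2 and 3, so a pairing of these groups is not settled. With a replicate block, 4 members were higher and 9 lower after CS2, 8 and 3 after FB23-2, and 10 and 3 for FB23-2 minus CS2. The share of all genes called with the block is not given here, so these counts cannot be read as particular to the members. The block lost no call of a member. It added MT-ND2 (-0.34) and MT-ND6 (-0.40) after CS2, MT-ATP6 (-0.21) after FB23-2, and MT-CO1 (0.38) and MT-RNR2 (-0.71) between the compounds.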
